A study of Mus musculus with 12 samples.

Results

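The interaction of a tongue tumour with the inhibition of sensory nerves was measured in mouse lymph nodes by RNA-seq. For every gene it is the difference between 2 log2 fold changes of nerve inhibition, the one in tumour-bearing mice (T NDE over T NC) minus the one in tumour-free mice (NT NDE over NT NC). All 12 libraries of the series entered it, and 17268 of the 55487 genes in the count table (31.1%) had enough counts to be tested. A value of 0 means that nerve inhibition went with the same fold with and without a tumour. A negative value means that the ratio of NDE to NC was lower in tumour-bearing mice, and the same number is the tumour effect in NDE mice minus the tumour effect in NC mice.

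T NDE mice had received B16F10 cells in the tongue, and the nociceptive nerves of their tumour-draining lymph node (TDLN) were inhibited. T NC mice carried the same B16F10 inoculation with these nerves not inhibited. NT NDE mice had the nerves inhibited and no inoculation, and NT NC mice had neither. B16F10 is a pigmented, metastatic melanoma line of the C57BL/6 mouse that grows in mice with an intact immune system. The series title speaks of denervation and of premetastatic nodes. The sources used here do not give the means of inhibition, any treatment of the NC mice, the strain, sex and age of the animals, the time after inoculation or the position of the node. Each group held 3 biologically independent libraries. The labels do not say whether a library is 1 mouse or a pool.

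Nociceptors are pain-sensing neurons whose fibres reach lymph nodes and release neuropeptides such as CGRP (calcitonin gene-related peptide) and substance P. These act on receptors of endothelial, stromal and immune cells. A node that drains a tumour can gain myeloid cells and change its stroma before tumour cells arrive, and the interaction asks whether nociceptor input matters differently in such a node and in a node with no tumour upstream. In these bulk libraries, fewer cells of a type and less RNA per cell cannot be told apart.

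Total counts ran from 16862953 to 24467873 per library. B and T cell transcripts were abundant in every library, with Cd79a at 457.3 to 693.7 CPM (the counts of a gene scaled to a common library total) and Cd3e at 89.0 to 123.4 CPM. The stromal chemokine Ccl21a, which has near-identical copies in the mouse genome and may be undercounted, lay between 0.935 and 11.6 CPM. The 5 melanoma markers Pmel, Mlana, Tyr, Tyrp1 and Dct summed to 1.33 to 1.79 CPM in T NDE, 0.817 to 2.49 CPM in T NC, 0.896 to 1.24 CPM in NT NDE and 1.33 to 1.59 CPM in NT NC, so that the ranges of inoculated and other mice overlapped. The highest sum was in T NC replicate 3, the library with most Tyrp1 counts (11).

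Salivary gland transcripts set 3 libraries apart. In T NDE replicate 3 they made up 4.19% of all counts (exact binomial 95% limits 4.18% and 4.20%). The share was 3.02% for replicate 3 of NT NC (limits 3.02% and 3.03%) and 0.155% for its replicate 2 (0.153% and 0.156%). It lay between 0.00204% and 0.00697% in the other 9 libraries. The intervals cover counting error only. All 3 libraries lie in the groups that enter the interaction with a plus sign, T NDE and NT NC, so that any transcript they share in excess takes a positive interaction. Results are therefore also given without these 3 libraries, which leaves 1 NT NC library, replicate 1, whose spread is then taken from the other groups. Keratinocyte markers were highest in the 2 most salivary libraries, at 60.9 CPM in T NDE replicate 3 and 57.1 CPM in NT NC replicate 3, against 38.1 to 45.8 CPM in the other 10. Erythrocyte markers summed to 229.4 CPM in T NDE replicate 3 and 122.9 CPM in NT NDE replicate 3, against 21.2 to 33.9 CPM in the other 10 libraries. Adipocyte markers summed to 203.3 CPM in T NDE replicate 3, against 45.9 to 112.3 CPM in all other libraries. The part of these traces in the results was not tested.

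**Figure D1:**
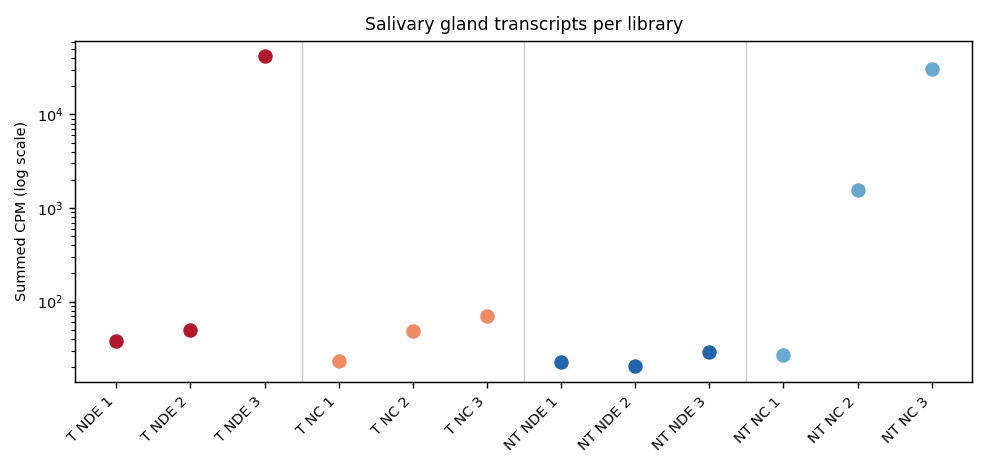
Summed CPM of the salivary gland list (y axis, log scale) in each of the 12 libraries (x axis), 1 point per library. T NDE replicate 3 (41888), NT NC replicate 3 (30240) and NT NC replicate 2 (1546) stand above the other libraries, which lie between 20.4 and 69.7.

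Across all genes, the interaction was centred near 0 and no gene passed in edgeR. Of 17268 genes, 0 (0.00%) had a Benjamini-Hochberg adjusted p under 0.05 in edgeR's quasi-likelihood test, the smallest adjusted p being 0.37. An unadjusted p under 0.05 was reached by 1210 genes (7.01%), 558 with a positive interaction (3.23%) and 652 with a negative one (3.78%). DESeq2 called 43 genes (0.249%), 21 positive (0.122%) and 22 negative (0.127%), and limma-voom called 0, with 1163 and 1093 genes at an unadjusted p under 0.05. Values above 0 were found for 51.4% of genes and values below 0 for 48.6%, and the unadjusted p of DESeq2 was under 0.05 for 3.12% in the positive and 3.61% in the negative direction. Without the 3 salivary libraries 315 of 18147 genes (1.74%) had a positive and 616 (3.39%) a negative value with an unadjusted p under 0.05. The median interaction was 0.01, the central 50% of genes lay between -0.13 and 0.16, and the median standard error was 0.18. The values below are therefore descriptions of single genes and gene groups, none of which passed in edgeR with all 12 libraries, and each count of genes is to be read against these shares.

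The effect of nerve inhibition in T said little about the effect in NT. Spearman's rho between both log2 fold changes was 0.03 across the 17268 genes, while Pearson's r was -0.56. The genes are not independent, since they share the 12 libraries, and the genes far from the centre include salivary genes. The number of genes whose libraries did not overlap in either pair was 66 for T NDE below T NC with NT NDE above NT NC (0.382% of genes tested). It was 41 for the opposite crossing (0.237%), 156 for lower with nerve inhibition in both (0.903%) and 56 for higher in both (0.324%).

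**Figure D2:**
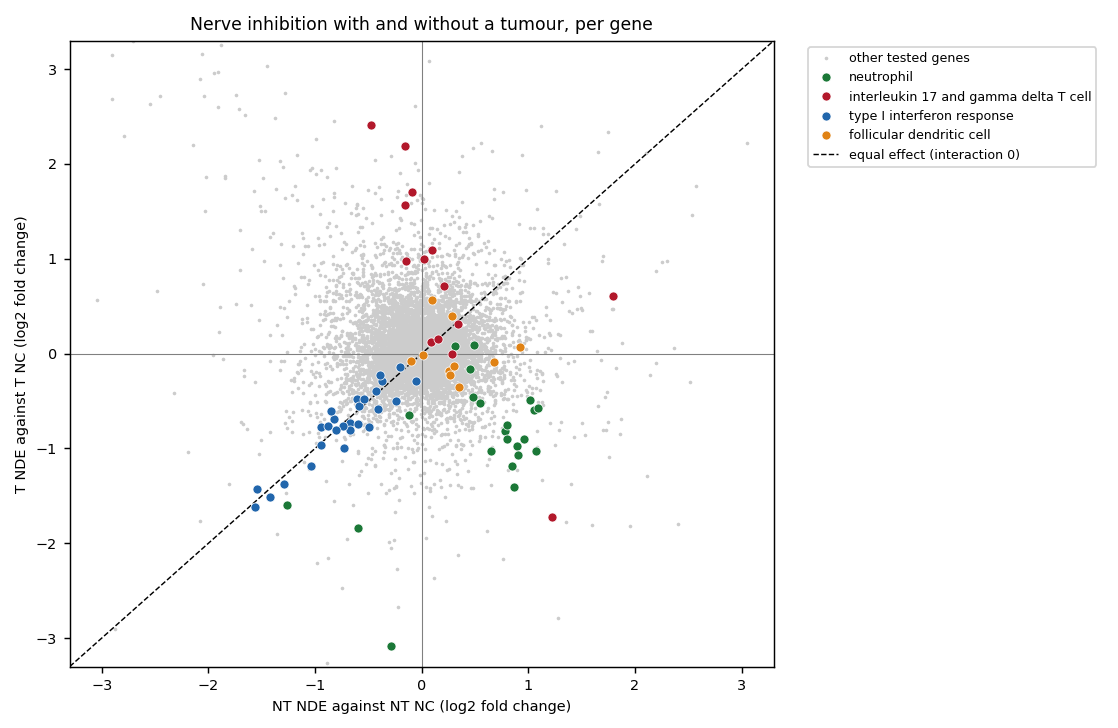
Log2 fold change of T NDE against T NC (y axis) and of NT NDE against NT NC (x axis) for each tested gene, with 4 gene lists in colour and genes of equal effect on the dashed line. Most neutrophil genes lie at the lower right (median -0.86 in T and 0.79 in NT), type I interferon genes lie along the line at the lower left (-0.74 and -0.67), and 59 genes lie outside the plotted range of 3.3 in either direction.

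Genes with a negative interaction mostly crossed, and so did those with a positive one. Among the 652 genes with a negative value and an unadjusted p under 0.05, 603 had log2 fold changes of inhibition below 0 in T and above 0 in NT. Of the 558 positive genes at the same threshold, 509 crossed the other way. The selection by a difference of effects favours such crossing, so these counts are a description. For 440 of the 652 negative genes (67.5%) the NT part was the larger of both. The lowest of the 4 group means was NT NC for 485 genes (74.4%) and T NDE for 166 (25.5%), and the highest was T NC for 349 and NT NDE for 302. A negative value itself favours high means in T NC and NT NDE and low means in T NDE and NT NC. The counts of lowest and highest groups are therefore a description as well. Of the NT NC libraries, replicates 2 and 3 are salivary. Without the 3 salivary libraries all 652 had a negative value, and 250 (38.3%) an unadjusted p under 0.05. The 9 libraries used there are among the 12 that chose the genes, so these counts describe the dependence on the 3 libraries and are no independent test.

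Socs3 had the smallest p of all genes. It encodes a feedback inhibitor of cytokine receptors that signal through JAK kinases and STAT3, such as those of interleukin 6 and G-CSF. It lies on mm10 chromosome 11 from 117966079 to 117970047. Socs3 measured 105.2, 108.4 and 87.4 CPM in T NDE, against 121.1, 114.2 and 121.8 CPM in T NC. It measured 133.0, 119.8 and 126.6 CPM in NT NDE, against 59.8, 85.3 and 76.9 CPM in NT NC. Every T NDE library was below every T NC library and every NT NDE library above every NT NC library. The interaction was -1.02 (SE 0.16, 95% interval -1.36 to -0.68, edgeR adjusted p = 0.37, DESeq2 adjusted p = 3.07e-06), made of -0.25 in T and 0.77 in NT. The gene passed in edgeR without the 3 salivary libraries (-1.24, edgeR adjusted p = 0.000291; 3 of 18147 genes, 0.0165%, were called there), where NT NC is the replicate with 59.8 CPM. Leaving out 1 library gave -1.13 to -0.89.

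The 250 bases before the RefSeq start of Socs3 hold a motif of the form TTCNNNGAA, the letters of the element that STAT factors bind. They are printed below beside those of Lcn2, the negative gene of smallest p in the neutrophil list, which hold no such motif. Capitals mark the motif, which starts 154 bases before the RefSeq start in Socs3. The form TTCNNNGAA is its own reverse complement, so that a search of 1 strand covers both, while the 3 bases in its middle differ between strands. The GENCODE spans of both genes include transcripts that start farther upstream, so that these windows lie before the RefSeq start but inside the GENCODE span. The sequences are from RefSeq on GRCm38.p6, at chr11:117969367-117969616 (minus strand) for Socs3 and chr2:32387740-32387989 (minus strand) for Lcn2, written 5′ to 3′ in the direction of the gene.
Socs3: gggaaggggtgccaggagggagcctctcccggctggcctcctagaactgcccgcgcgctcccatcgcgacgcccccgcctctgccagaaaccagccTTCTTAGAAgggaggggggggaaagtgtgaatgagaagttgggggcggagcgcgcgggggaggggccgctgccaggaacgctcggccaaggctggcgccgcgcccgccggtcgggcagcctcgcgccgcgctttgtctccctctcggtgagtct
Lcn2: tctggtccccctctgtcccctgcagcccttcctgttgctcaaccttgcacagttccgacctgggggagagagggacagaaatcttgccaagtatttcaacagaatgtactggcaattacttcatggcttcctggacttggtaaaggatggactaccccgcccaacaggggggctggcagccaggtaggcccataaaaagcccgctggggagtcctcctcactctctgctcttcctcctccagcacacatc
A motif of these letters occurs in 2306 of 32851 promoter windows of the same length (7.02%) and in 905 of 14917 windows of tested genes (6.07%). A match in the letters describes the sequence and does not show that a factor binds there.

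Neutrophil genes formed the group with the lowest median interaction among the 15 lists plotted here. All 22 members were tested, all 22 had a negative value, and 16 had an unadjusted p under 0.05, against 3.78% of all genes. The median was -1.62, beside 0.01 over all genes, with 0 members passing in edgeR. Genes of the same cell type can vary together, so the members do not count as independent. Inhibition went with a median of -0.86 in T (20 of 22 lower) and 0.79 in NT (18 of 22 higher). Seen from the tumour, the same members had a median of -0.22 for T NDE against NT NDE and 1.39 for T NC against NT NC.

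The mean log2 CPM of the neutrophil list was 3.00, 2.77 and 2.96 in T NDE, against 3.48, 3.78 and 4.14 in T NC. It was 3.08, 3.09 and 3.05 in NT NDE, against 3.04, 2.40 and 2.01 in NT NC. The T groups did not overlap, and neither did the NT groups, but NT NC replicate 1, the NT NC library with few salivary transcripts, lay next to the NT NDE libraries. The median without the 3 salivary libraries was -1.18, and leaving out 1 library gave -1.92 (NT NC replicate 1) to -1.37 (T NC replicate 3 or NT NC replicate 3). Without the 3 salivary libraries the members Elane, Ly6g and Mpo were above 0 (0.08, 0.41 and 0.64), and the other members were below 0. Over all 12 libraries Ly6g had -0.52.

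Of the granule proteins, Lcn2, the iron-withholding lipocalin, had the smallest p. Lcn2 measured 18.9, 13.0 and 14.3 CPM in T NDE, against 21.7, 30.4 and 39.0 CPM in T NC. It measured 16.9, 21.2 and 18.0 CPM in NT NDE, against 13.1, 8.79 and 8.42 CPM in NT NC. Neither pair overlapped, and the interaction was -1.87 (SE 0.32, edgeR adjusted p = 0.483, DESeq2 adjusted p = 3.29e-06). The calcium-binding alarmin S100a9 had means of 60.2 ± 15.1 CPM (T NDE), 112.5 ± 30.1 CPM (T NC), 77.9 ± 11.5 CPM (NT NDE) and 40.3 ± 14.3 CPM (NT NC), with the SD of 3 libraries each. Its interaction was -1.86, and that of its partner S100a8 was -1.70. The neutrophil granule genes Camp, Ngp and Ltf had interactions of -2.28, -2.03 and -2.10.

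Of the other neutrophil genes, Cd177, a surface glycoprotein, had means of 5.49 ± 1.03 CPM (T NDE), 11.5 ± 3.44 CPM (T NC), 7.95 ± 0.904 CPM (NT NDE) and 4.29 ± 2.04 CPM (NT NC), with the SD of 3 libraries each. Its interaction was -1.97 (SE 0.42, edgeR adjusted p = 0.483). Haptoglobin, Hp, a binder of free haemoglobin, had -1.64 (SE 0.35), and -1.72 without the 3 salivary libraries, where Lcn2 was at -1.45 and Cd177 at -1.24. The lowest member was Olfm4, a granule protein of a neutrophil subset, at -2.79. Its T NC libraries held 2.34, 1.71 and 6.59 CPM, while T NDE held 0.496, 0.204 and 0.527 CPM and the NT libraries 0.469 to 1.01 CPM. The 3 members nearest to 0 were the chemokine receptor gene Cxcr2 (-0.23), the myeloperoxidase gene Mpo (-0.34) and the G-CSF receptor gene Csf3r (-0.39), each at an unadjusted p above 0.05. DESeq2 called 8 of the 22 members, all among its 22 negative genes.

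**Figure D3:**
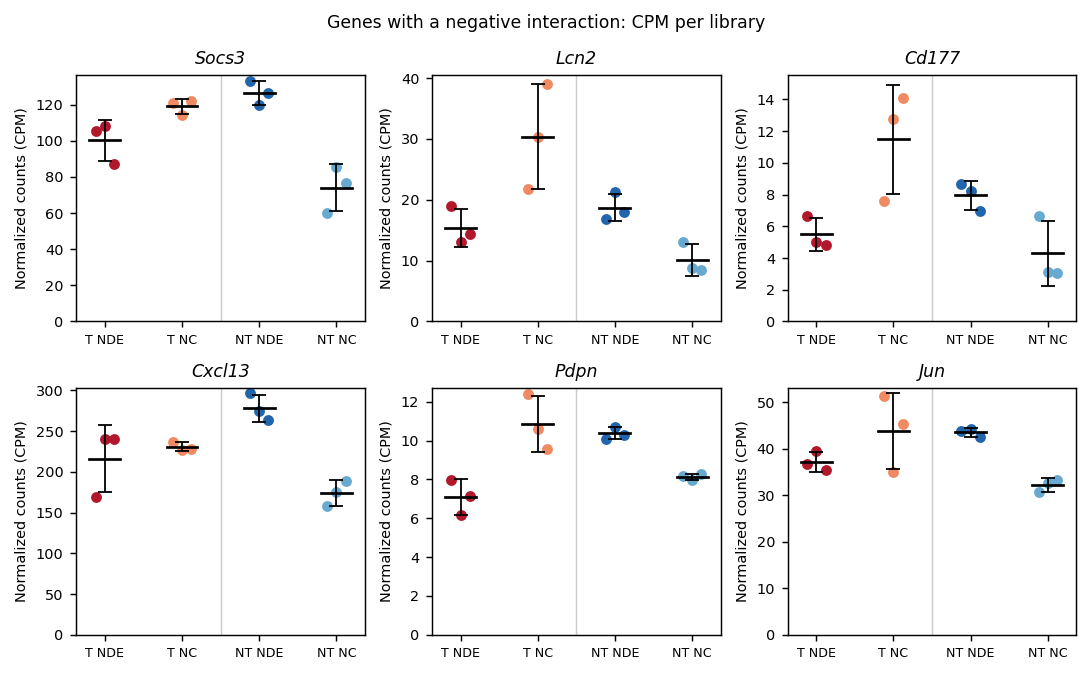
CPM (y axis) of 6 genes with a negative interaction in each library, by group (x axis), with points for libraries, a bar for the mean and whiskers for the SD (n = 3). For Socs3, Lcn2, Cd177 and Pdpn the T NDE points lie below the T NC points and the NT NDE points above the NT NC points, while for Cxcl13 and Jun the T groups overlap.

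Inflammatory cytokines and targets of NF-kB, the transcription factor of innate signalling, leaned the same way. Of 18 members 16 were tested, 13 were negative and 6 had a negative value with an unadjusted p under 0.05. The median was -0.40, and -0.41 without the 3 salivary libraries, but -0.22 without T NC replicate 3 (range with 1 library left out -0.56 to -0.22). Among the chemokines, Ccl2, which draws monocytes, measured 2.31, 3.67 and 2.16 CPM in T NDE, against 6.08, 6.76 and 10.5 CPM in T NC. It measured 3.91, 4.48 and 4.18 CPM in NT NDE, against 2.98, 5.57 and 2.17 CPM in NT NC. The T groups were apart and the NT groups overlapped, and the interaction was -1.73 (SE 0.46, edgeR adjusted p = 0.634). The monocyte chemokine Ccl7 and the CCR6 ligand Ccl20 had -1.52 and -2.02. Of the cytokines, Il1b had -1.36, with means and SDs of 8.56 ± 3.95 CPM (T NDE), 11.2 ± 2.56 CPM (T NC), 12.2 ± 3.49 CPM (NT NDE) and 6.10 ± 2.27 CPM (NT NC). Socs3 is a member of this list too. The feedback genes of NF-kB had values of 0.01 (Nfkbia), 0.00 (Nfkbiz) and 0.16 (Tnfaip3).

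Among the AP-1 genes of the immediate early list, which are transcribed within minutes of a stimulus, the Jun family had the smallest p. Jun measured 36.6, 39.5 and 35.3 CPM in T NDE, against 51.2, 35.0 and 45.2 CPM in T NC. It measured 43.8, 44.2 and 42.4 CPM in NT NDE, against 30.6, 32.7 and 33.3 CPM in NT NC. Its interaction was -0.67 (SE 0.15, edgeR adjusted p = 0.483), that of Junb was -0.37, and Fos and Egr1 had -0.13 and -0.03. Of 17 members 13 were negative and 4 had a negative value with an unadjusted p under 0.05, and the median was -0.11. The group as a whole lay near 0, and without T NC replicate 3 its median was -0.01.

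Follicular dendritic cells, the stromal cells that hold antigen and organise the B cell follicle, had 7 of 10 tested marker genes negative (11 listed), 6 of them with an unadjusted p under 0.05. The median was -0.43, or -0.33 without the 3 salivary libraries. Cxcl13, whose product attracts B cells to the follicle, measured 169.0, 240.1 and 239.7 CPM in T NDE, against 237.1, 227.0 and 228.3 CPM in T NC. It measured 296.1, 275.0 and 263.1 CPM in NT NDE, against 157.7, 175.6 and 188.5 CPM in NT NC. The NT groups were apart and the T groups overlapped. The interaction of -0.77 (SE 0.16, edgeR adjusted p = 0.483, DESeq2 adjusted p = 0.00282) was made of -0.09 in T and 0.68 in NT. Coch, a secreted protein of these cells, had -0.85 with the same division (means and SDs of 12.7 ± 2.77 CPM (T NDE), 12.1 ± 0.232 CPM (T NC), 17.4 ± 2.74 CPM (NT NDE) and 9.15 ± 1.48 CPM (NT NC)). Bst1, a surface enzyme of stroma, and Mfge8, which bridges apoptotic cells to phagocytes, had -0.50 and -0.43. The complement receptor gene Cr2, which B cells express as well, had 0.12.

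In the wider stroma, the extracellular matrix list divided the other way, with the difference on the tumour side. Of 20 members 19 were negative and 6 had an unadjusted p under 0.05, with a median of -0.37. Inhibition went with a median of -0.40 in T, where 20 of 20 were below T NC in T NDE, and 0.01 in NT, where 10 were lower and 10 higher in NT NDE. Sparc, a collagen-binding glycoprotein, had means of 225.9 ± 23.9 CPM (T NDE), 306.8 ± 25.4 CPM (T NC), 267.9 ± 33.9 CPM (NT NDE) and 256.3 ± 28.4 CPM (NT NC), with the SD of 3 libraries each. Its interaction was -0.51 (SE 0.15, edgeR adjusted p = 0.635). The fibrillar collagen gene Col3a1 had -0.69 and the fibronectin gene Fn1 -0.72, or -0.44 without T NC replicate 1, where Fn1 was highest at 276.7 CPM. The median of the list without the 3 salivary libraries was -0.35. Leaving out 1 library gave -0.48 (T NC replicate 2) to -0.28 (T NC replicate 1). T NC replicate 1 had the highest mean log2 CPM of the list, 6.82.

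Pdpn, the podoplanin gene of fibroblastic reticular cells and lymphatic endothelium, measured 7.99, 6.17 and 7.14 CPM in T NDE, against 12.4, 10.6 and 9.56 CPM in T NC. It measured 10.1, 10.7 and 10.3 CPM in NT NDE, against 8.16, 7.96 and 8.27 CPM in NT NC. Neither pair overlapped, and the interaction was -0.96 (SE 0.19, edgeR adjusted p = 0.483, and -0.97 without the 3 salivary libraries). Madcam1, the mucosal addressin, listed with follicular dendritic cells and lymphatic endothelium, had -0.70, or -0.34 without the 3 libraries. Of 15 complement genes, many made by stroma and macrophages, 13 were negative and 5 had an unadjusted p under 0.05 (median -0.27, or -0.44 without T NDE replicate 3). Serping1, the inhibitor of the first complement component, led them with -0.55.

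Gm4617, annotated as a processed pseudogene on mm10 chromosome 3, was chosen after its values were seen because it had the second smallest p of all genes. Gm4617 measured 19.1, 20.7 and 20.3 CPM in T NDE, against 30.7, 35.1 and 26.7 CPM in T NC. It measured 36.3, 37.7 and 44.2 CPM in NT NDE, against 32.2, 27.0 and 35.7 CPM in NT NC. Neither pair overlapped. Reads of a processed pseudogene may come from a near-identical gene, so that these values are uncertain. Its interaction was -0.94 (edgeR adjusted p = 0.37), and it was the 1 gene that passed between T NDE and NT NDE (-0.97, edgeR adjusted p = 0.0104; 0.00579% of genes called). The other comparisons of the design had 0 genes (0.00%) in edgeR, with 1005 (inhibition in T), 1759 (inhibition in NT) and 1349 (tumour in NC) at an unadjusted p under 0.05.

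Dtx1, a ubiquitin ligase of the Notch pathway, had -0.68, Flrt3, a membrane adhesion protein, had -0.96, and Slc15a3, a lysosomal peptide transporter, had -0.45. The antiviral membrane protein gene Ifitm2 had -1.05 and the apoptosis effector gene Bak1 -0.48. Each of these 5 genes had an edgeR adjusted p of 0.483 and a value of the same sign without the 3 salivary libraries.

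Housekeeping groups showed small shifts of 1 sign. Of 19 nuclear genes of oxidative phosphorylation 18 were negative and 5 had an unadjusted p under 0.05, with a median of -0.18 (-0.23 without the 3 salivary libraries). Ndufs6, a subunit of complex I, measured 16.4, 17.9 and 18.1 CPM in T NDE, against 20.6, 20.5 and 19.5 CPM in T NC. It measured 19.4, 18.1 and 18.9 CPM in NT NDE, against 15.8, 15.1 and 17.6 CPM in NT NC. Both pairs were apart, and the interaction was -0.43 (SE 0.13). All 23 cytosolic ribosomal protein genes were negative with a median of -0.10, 4 with an unadjusted p under 0.05, among them Rpl13 (-0.30). Without T NC replicate 1 that median was -0.05, and without the 3 salivary libraries it was -0.06 with 0 members at an unadjusted edgeR p under 0.05. Members of each of these complexes are transcribed together and do not count as independent.

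Among the 558 genes with a positive interaction and an unadjusted p under 0.05, 528 were measured without the 3 salivary libraries. Of these 513 had a positive value there, and 135 (24.2% of the 558) an unadjusted p under 0.05 as well, again on libraries that had chosen them. Of the 21 positive DESeq2 calls, 17 were more than 2 times as high in T NDE replicate 3 and in NT NC replicate 3 as in any of the 9 libraries with few salivary transcripts. The other 4 were Sox13, Kcnk1, Tcrg-V6 and Kcnt1. Of these, Kcnt1 was still higher in both of these salivary libraries (at least 1.71 CPM) than in any of the 9 (at most 1.41 CPM). Kcnt1 was chosen after its values were seen and had a mean under 1 CPM.

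Among these 4, Sox13 and Tcrg-V6 belong to the list of interleukin 17 and gamma delta T cells. Gamma delta T cells carry a receptor of gamma and delta chains, and those with the Tcrg-V6 chain are innate-like cells of barrier tissues and nodes that make interleukin 17. Of the 16 listed genes 14 were tested, 10 were positive and 6 had a positive value with an unadjusted p under 0.05, against 3.23% of all genes. The median was 0.74, with 0.85 in T and 0.10 in NT. It was 0.44 without the 3 salivary libraries, and 0.40 without T NDE replicate 1.

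The receptor genes of the lineage were highest in T NDE and lowest in T NC. Tcrg-V6, on mm10 chromosome 13 from 19190356 to 19190929, measured 3.75, 1.63 and 2.49 CPM in T NDE, against 0.452, 0.695 and 0.297 CPM in T NC. It measured 0.781, 1.60 and 0.731 CPM in NT NDE, against 1.41, 1.76 and 1.16 CPM in NT NC. The T groups were apart and the NT groups overlapped, and the interaction was 2.89 (SE 0.58, edgeR adjusted p = 0.483, DESeq2 adjusted p = 0.00738). Trdc, the constant region of the delta chain, measured 53.5, 20.3 and 28.5 CPM in T NDE, against 15, 10.7 and 8.49 CPM in T NC. It measured 16.4, 22.1 and 22.1 CPM in NT NDE, against 17.6, 24.7 and 25.2 CPM in NT NC.

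The T groups were apart for Trdc as well, and T NDE replicate 1 was the highest library. The interaction of Trdc was 1.73 (SE 0.50), or 1.24 without that library, and Tcrg-C1, a constant region of the gamma chain, had 1.80. Cd163l1, a scavenger receptor of interleukin 17-producing gamma delta T cells, had 2.35, with means and SDs of 76.2 ± 47.3 CPM (T NDE), 16.6 ± 3.07 CPM (T NC), 37.0 ± 12.4 CPM (NT NDE) and 41.2 ± 11.5 CPM (NT NC). Reads of gamma chain segments and constant regions can be divided among near-identical copies, so that the values of Tcrg-V6 and Tcrg-C1 are uncertain.

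Of the transcription factors of this lineage, Sox13 measured 19.1, 12.2 and 16.6 CPM in T NDE, against 7.81, 8.71 and 7.43 CPM in T NC. It measured 9.43, 12.2 and 12.2 CPM in NT NDE, against 12.4, 10.3 and 10.6 CPM in NT NC. All T NDE libraries were above all T NC libraries, the NT groups overlapped, and the interaction was 0.97 (SE 0.23, edgeR adjusted p = 0.634). Zbtb16, which encodes PLZF, had 1.12. Without the 3 salivary libraries Sox13 was at 1.10 and Zbtb16 at 0.57.

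The cytokine genes Il22 and Il17f of the same list had negative values. Il22, which acts on epithelial cells, had means of 0.228 ± 0.137 CPM (T NDE), 0.755 ± 0.0895 CPM (T NC), 0.457 ± 0.223 CPM (NT NDE) and 0.187 ± 0.113 CPM (NT NC), with the SD of 3 libraries each. Its interaction was -2.94 (SE 0.81, edgeR adjusted p = 0.634) at under 1 CPM in every library. Il17f had -1.18 with higher values in NDE in both pairs (means and SDs of 1.47 ± 0.267 CPM (T NDE), 0.962 ± 0.0939 CPM (T NC), 1.68 ± 0.285 CPM (NT NDE) and 0.473 ± 0.276 CPM (NT NC)).

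**Figure D4:**
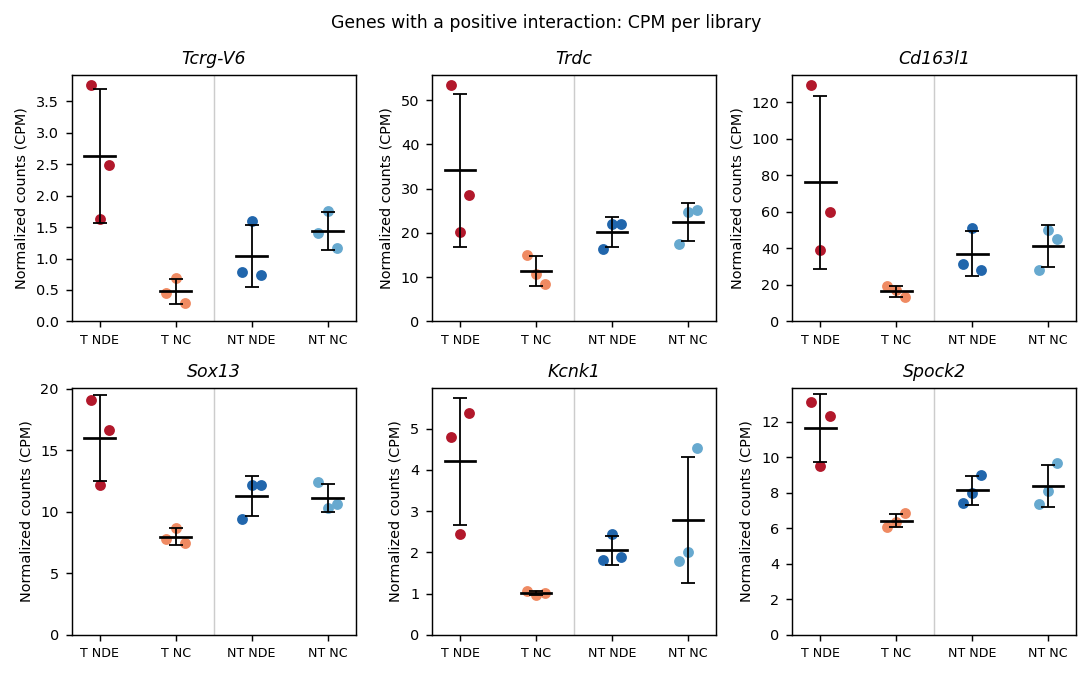
CPM (y axis) of 6 genes with a positive interaction in each library, by group (x axis), with points for libraries, a bar for the mean and whiskers for the SD (n = 3). In all 6 the T NDE points lie above the T NC points and the NT groups overlap, and T NDE replicate 1 is the highest library for the 4 genes of the gamma delta list.

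Outside that list, the potassium channel gene Kcnk1 had 2.48 (SE 0.51), with 4.79, 2.45 and 5.37 CPM in T NDE, against 1.07, 0.973 and 1.01 CPM in T NC. It measured 1.82, 2.45 and 1.88 CPM in NT NDE, against 1.80, 2.01 and 4.54 CPM in NT NC. In T NDE and in NT NC the highest value was in replicate 3, a salivary library in both groups. The interaction without the 3 salivary libraries was 1.63. Spock2, a proteoglycan of the matrix, had 0.90, Mid1, a microtubule-bound ubiquitin ligase, had 1.27, and Hdac11, a histone deacetylase, had 0.94. Ptpru, a receptor phosphatase, and Fmo2, a flavin monooxygenase, had 1.90 and 1.68. Without the 3 libraries Mid1 was at 0.40 and Fmo2 at 0.88.

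A further set of positive genes had small interactions and little spread. Sirt1, a NAD-dependent deacetylase, measured 59.6, 58.2 and 60.6 CPM in T NDE, against 52.0, 55.8 and 55.4 CPM in T NC. It measured 51.3, 50.7 and 53.7 CPM in NT NDE, against 58.4, 61.8 and 61.4 CPM in NT NC. Both pairs were apart in opposite directions, and the interaction was 0.35 (SE 0.08, edgeR adjusted p = 0.634). The same crossing without overlap was found for D16Ertd472e (0.34), Dgke, a diacylglycerol kinase (0.39), Pcmtd1 (0.37) and Fra10ac1 (0.43), all among the 41 genes counted above.

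Clock genes leaned positive. The median over the 16 members was 0.19, or 0.13 without the 3 salivary libraries. Leaving out 1 library gave 0.11 (T NC replicate 1) to 0.33 (T NC replicate 3). Of the members 14 were positive, and 3 had a positive value with an unadjusted p under 0.05. The 3 were Nr1d1 (0.60) and Nr1d2 (0.45), which encode the REV-ERB repressors, and Tef (0.41), a transcription factor under clock control. Without the 3 salivary libraries Nr1d1 was at 0.68, Nr1d2 at 0.24 and Tef at 0.26. Nr1d1 measured 24.5, 25.1 and 34.9 CPM in T NDE, against 20.3, 24.2 and 19.7 CPM in T NC. It measured 26.0, 25.2 and 21.7 CPM in NT NDE, against 33.8, 19.8 and 30.3 CPM in NT NC. T NDE replicate 3 held the highest value. The hour at which nodes were taken is not known here, and its part in these values was not tested.

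Glucocorticoid response genes had a positive median of 0.41 over 13 members, 10 of them positive, which rested on T NDE replicate 3. Their mean log2 CPM was 4.55, 4.62 and 5.21 in T NDE, against 4.53, 4.38 and 4.60 in T NC. It was 4.43, 4.77 and 4.76 in NT NDE, against 4.64, 4.61 and 4.77 in NT NC. T NDE replicate 3 was the highest library, and without it the median was 0.04. Tsc22d3, which encodes the glucocorticoid-induced protein GILZ, reached 309.9 CPM in that library, against 124.4 to 231.9 CPM in the other 11.

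Type I interferon response genes had an interaction near 0 while both of its parts were negative. All 27 members had log2 fold changes of inhibition below 0 in T and in NT, with medians of -0.74 and -0.67. For 14 of them neither pair overlapped, against 0.903% of all genes. The interaction had a median of -0.02, 15 members were negative and 12 positive, and 0 had an unadjusted p under 0.05. Ifit1, which binds foreign RNA, measured 8.54, 13.2 and 9.49 CPM in T NDE, against 17.3, 21.4 and 50.9 CPM in T NC. It measured 18.4, 14.0 and 17.7 CPM in NT NDE, against 33.2, 53.5 and 47.4 CPM in NT NC. Both pairs were apart in the same direction. The interaction of -0.09 had a 95% interval of -1.38 to 1.21, which spans wide differences of either sign.

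Intervals were wide for other interferon genes too. Mx1, an antiviral GTPase, had 0.17 (-0.65 to 0.98), Isg15, a ubiquitin-like modifier, had -0.26 (-1.41 to 0.89), and Irf7, the transcription factor that amplifies the response, had -0.14 (-1.26 to 0.98). T NC replicate 3 held the highest T NC value for all 4 genes. Without it the median of the list was 0.33, and without the 3 salivary libraries it was -0.32.

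Interferon gamma response genes divided evenly, 10 positive and 10 negative, with a median of 0.01. Cxcl9, a chemokine for CXCR3-bearing T cells, was an exception with -0.96 (SE 0.35, unadjusted p = 0.0229). Cxcl9 measured 24.7, 28.8 and 30.4 CPM in T NDE, against 46.2, 42.5 and 78.8 CPM in T NC. It measured 35.1, 37.3 and 31.0 CPM in NT NDE, against 34.0, 44.5 and 27.0 CPM in NT NC. The T groups were apart and the NT groups overlapped. Gbp2, a guanylate-binding protein, had -0.37, while Gbp4 of the same family had 0.25 with lower means in NDE in T and in NT.

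**Figure D5:**
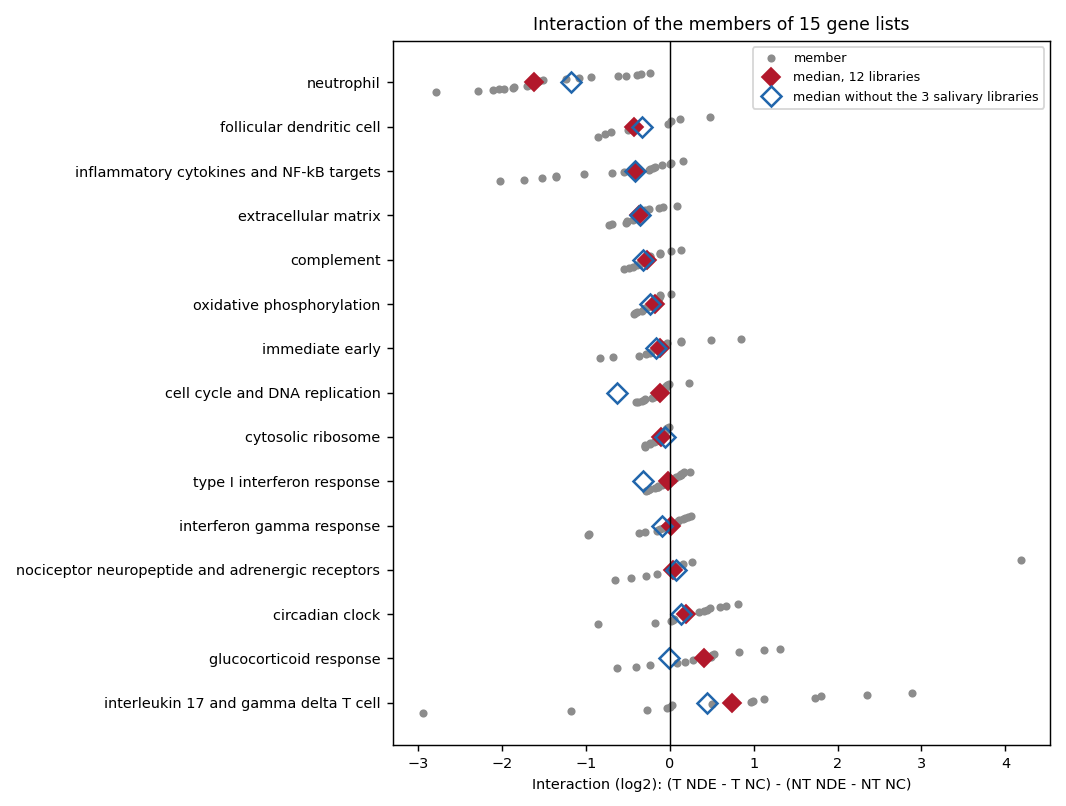
Interaction on the log2 scale (x axis) of the tested members of 15 gene lists (y axis), with a grey point per member, a filled diamond for the median over 12 libraries and an open diamond for the median without the 3 salivary libraries. The neutrophil median is lowest (-1.62) and that of interleukin 17 and gamma delta T cells highest (0.74). Open and filled diamonds lie far apart for the neutrophil list (-1.18 and -1.62), cell cycle (-0.63 and -0.11) and glucocorticoid response (-0.01 and 0.41). They also differ for type I interferon response (-0.32 and -0.02) and for interleukin 17 and gamma delta T cells (0.44 and 0.74).

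Cell cycle genes depended on which NT NC libraries were used. Of 24 members 23 were negative, with 0 at an unadjusted p under 0.05 and a median of -0.11. The mean log2 CPM was 5.48, 5.55 and 5.44 in T NDE, against 5.52, 5.40 and 5.28 in T NC. It was 5.44, 5.32 and 5.65 in NT NDE, against 4.78, 5.38 and 5.49 in NT NC. NT NC replicate 1 was the lowest library. It alone stands for NT NC once the salivary libraries are left out, where the median was -0.63, and without it the median was 0.05. Mki67, the proliferation marker, had -0.06, and Birc5, the survivin gene, had -0.40, or -1.10 without the 3 salivary libraries.

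The other genes that passed without the salivary libraries also turned on NT NC replicate 1. These were the immunoglobulin segments Ighv1-34 (4.35) and Igkv4-57-1 (2.53, edgeR adjusted p = 0.0228 each; 0.0110% of 18147 genes called positive, against 0.00551% negative). Ighv1-34 was at 29.9 CPM in that library, and between 0.417 and 2.05 CPM in the other 11. Il21, the cytokine of follicular helper T cells, had -1.48 over all libraries and -2.91 without the 3, with 0.619 CPM in NT NC replicate 1. The genes Cd300lg, a surface molecule of high endothelial venules, and Bmf, a promoter of apoptosis, had 0.50 and 0.40, or 0.66 and 0.55 without the 3 libraries.

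Of the receptors through which nociceptors could act, the 2 chains of the CGRP receptor, Calcrl and Ramp1, had values near 0, and Tacr1, which binds substance P, had a negative one. Calcrl measured 59.8, 64.0 and 68.1 CPM in T NDE, against 67.8, 67.9 and 64.5 CPM in T NC. It measured 57.4, 71.0 and 66.1 CPM in NT NDE, against 77.2, 67.6 and 71.1 CPM in NT NC. The groups overlapped, and the interaction was 0.09 (95% interval -0.15 to 0.33). Ramp1 had -0.15 (-0.55 to 0.24).

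Tacr1 had -0.65 (-1.27 to -0.04, unadjusted p = 0.0386, edgeR adjusted p = 0.709), with means and SDs of 3.21 ± 0.589 CPM (T NDE), 4.01 ± 0.438 CPM (T NC), 3.97 ± 0.164 CPM (NT NDE) and 3.17 ± 0.573 CPM (NT NC). It was -0.24 without the 3 salivary libraries. The receptor list had 11 tested members of 15, with 7 positive, 4 negative and a median of 0.04. Adrb1, the highest at 4.18, was at 5.23 CPM in T NDE replicate 3 and 3.53 CPM in NT NC replicate 3, and at 0.313 to 0.937 CPM in the other 10 libraries.

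Salivary genes themselves had large positive interactions through those 3 libraries. Of the 19 listed, 12 passed the count filter, 11 of them with a positive value and an unadjusted p under 0.05, and a gene could pass that filter through these libraries alone. Bpifa2, a secreted protein of salivary glands, measured 15.9, 26.0 and 26116 CPM in T NDE, against 9.45, 22.4 and 38.1 CPM in T NC. It measured 8.70, 6.55 and 12.5 CPM in NT NDE, against 10.4, 1003 and 19992 CPM in NT NC. Dcpp1 and Amy1, a salivary secretory protein and amylase, followed the same libraries. Without the 3 libraries the interactions of Bpifa2, Dcpp1 and Amy1 were 0.02, 0.12 and 0.06. Among melanocyte genes, Tyr, the tyrosinase gene, had 1.59 at 5 to 22 counts per library. Tyr had 6, 8 and 20 counts in T NDE, against 7, 11 and 7 in T NC. It had 7, 10 and 5 counts in NT NDE, against 13, 22 and 16 in NT NC. The 3 highest Tyr counts were those of the 3 salivary libraries. Without these libraries the interaction of Tyr was 0.79.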

How the data were processed

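Whole-number read counts per gene, deposited by the authors in 1 table, were used as given. Per the submitters' processing notes, HISAT2 2.0 and the mm10 build were used. The sources used here do not give the counter, annotation or strand setting, so reads of near-identical, overlapping or antisense genes may be divided in ways that cannot be checked. IDs without a symbol (346, at most 0.0548% of a library's counts) were left out.

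The tests ran in edgeR 4.0.16 under R 4.3.3: TMM factors (0.975 to 1.02), filterByExpr by group (minimum count 10, minimum total 15), 1 mean per group over 12 libraries, and the robust quasi-likelihood F test, two-sided, Benjamini-Hochberg adjusted over all genes at 0.05. Printed CPM of single genes use TMM factors, except those of Cd79a, Cd3e and Ccl21a. These 3 and the summed marker CPM use library totals. The p-values weigh a difference against the spread between the 3 libraries of a group. That spread is estimated over all groups together, with information shared across genes. The procedure was checked on simulated data. Alternatives were DESeq2 1.42.0, limma-voom 3.58.1, other scaling factors and filters, gene groups or libraries left out, Bpifa2 as a covariate and a replicate block.

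The comparison, the 49 gene lists and the rule for named genes were chosen with earlier results of these data known. Named were the 12 positive and 12 negative genes of smallest p with a mean of at least 1 CPM (without salivary, antigen receptor and predicted genes), the 8 of each sign by the same rule without the 3 salivary libraries (not all are described), up to 3 members of smallest p per list, the 6 most abundant salivary genes and the receptors Calcrl, Ramp1 and Tacr1. Some results are not reported here. Further members and genes were chosen after their values were seen, among them Trdc, Cd163l1, Tcrg-C1, Il17f, S100a8, S100a9, Camp, Ngp, Olfm4, Coch, Il1b, Ifit1, Mx1, Isg15, Irf7, Mki67, Kcnt1, Ighv1-34 and Igkv4-57-1. Positions are from GENCODE on mm10 and promoters from RefSeq on GRCm38.p6.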

Additional observations from a re-analysis of the deposited data

How the results depend on the processing

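Counts of genes passing depended on the tool and on single libraries. For the interaction DESeq2 called 43, no filter on low counts 1 (Gm4617), the replicate block 1 (Gm5154) and the fit without the 3 salivary libraries 3, and leaving out 1 library gave 0 to 2: Jun and Ighv1-74 without T NC replicate 2, Socs3 and Cd177 without NT NC replicate 1, and Socs3 without NT NC replicate 2. Limma-voom, the other scaling factors, the stricter filter, leaving out antigen receptor or salivary genes, the covariate and leaving out the 2 most salivary libraries each called 0.

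For T NDE against T NC the counts were 44 with DESeq2, 1 without the 3 salivary libraries and 0 to 1 with 1 library left out. For NT NDE against NT NC they were 138 with DESeq2, 33 without the 3 libraries, 3 with the block and 0 to 9. For T NDE against NT NDE they were 17, 28, 3 and 0 to 4 in the same order. For T NC against NT NC they were 40 with DESeq2, 7 without the 3 libraries and 0 to 3. With no filter on low counts these 4 comparisons had 12, 42, 1 and 4. The cause was not tested.

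Medians without the 3 salivary libraries were -1.18 (neutrophil), -0.33 (follicular dendritic cell), 0.44 (interleukin 17 and gamma delta T cell), -0.63 (cell cycle), -0.23 (oxidative phosphorylation) and -0.01 (glucocorticoid). Without the 2 most salivary libraries oxidative phosphorylation was at -0.24 and glucocorticoid at 0.00, and with Bpifa2 as a covariate cell cycle was at -0.37 and glucocorticoid at -0.08. With 1 library left out the medians ran from -0.44 to -0.22 (complement), 0.40 to 0.89 (interleukin 17 and gamma delta), 0.11 to 0.33 (clock), 0.04 to 0.52 (glucocorticoid) and -0.17 to -0.01 (immediate early).

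Of 1439 values for 80 genes, 1394 kept their sign and their side of the threshold, 29 passed where the value over all libraries had not, 0 ceased to pass and 16 changed sign, in 8 genes. With 1 library left out, 5 of these genes took both signs, from -0.37 to 0.53 (Ifit1), -0.04 to 0.56 (Mx1), -0.49 to 0.26 (Isg15), -0.41 to 0.33 (Irf7) and -0.24 to 0.19 (Mki67). Without the 3 salivary libraries Mx1 was at -0.08 and Ramp1 at 0.07, without 2 of them Isg15 was at 0.01 and Irf7 at 0.03, and with the covariate Bpifa2 was at -0.01 and Amy1 at -0.29.

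Replicate numbers did not pair the libraries. The deviations of same-numbered libraries from their group means correlated by 0.04 on average over 18 pairs (-0.12 to 0.52). The highest value was that of T NDE replicate 3 with NT NC replicate 3, the 2 most salivary libraries. Of 12 libraries, 4 correlated best with their own number. No 2 libraries of the same group agreed within counting noise. With 3 libraries per group, 1 of them rich in salivary transcripts in T NDE and 2 in NT NC, changes below the spread between libraries were not detectable.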
